A study of Mus musculus with 24 samples.

Results

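The 46 genes described here act in DNA repair and in the damage checkpoint, and were chosen as named genes of 8 repair pathways. A gene was read by the probe sets annotated to it alone, and by the one with the highest mean where there were several. Of the 46, 42 had a probe set of their own and 41 passed a filter on low values, among 11597 genes tested in all. Lig4, Neil1 and Smug1 had none, Tdg was read only by probe sets shared with other genes, and the single probe set of Bard1 lay below the filter on all 24 arrays. The rule used no tested difference. Where a gene had several probe sets, the mean ran over all 24 arrays, those after O3 included. A probe set that rises after O3 is thereby more likely to be picked.

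Lung RNA came from 8 groups of 3 male mice aged 6 to 8 weeks, 1 Affymetrix MOE430A array to a mouse. Tnfr+/+ mice were the strain C57BL/6J, and Tnfr-/- mice (B6.129S-Tnfrsf1a tm1Imx Tnfrsf1b tm1Imx/J) lack both receptors of the cytokine TNF in every cell. Loss of the receptors and strain background thus cannot be told apart in the genotype differences below. Each genotype breathed filtered air, or 0.3 ppm ozone (O3) without a break for 24, 48 or 72 h. The air mice of a genotype were the controls at all 3 times, and they were kept in a chamber apart from that of O3, so chamber and exposure cannot be told apart.

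Cells repair DNA by pathways that answer to different lesions. Base excision repair removes small base changes such as oxidised guanine, nucleotide excision repair cuts out bulky adducts, mismatch repair corrects copying errors, and breaks through both strands are joined end to end or copied from the sister chromatid by homologous recombination. Kinases of the checkpoint sense breaks and stalled replication forks and hold the cell cycle while repair proceeds. Several of these proteins also work at undamaged replication forks and are made mostly in S phase, and O3 is an oxidant that injures the airway epithelium.

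Values below are MAS5 intensities after quantile normalization, on a linear scale whose median probe set was at 228.1, and the filter kept probe sets that reached 52.21 on at least 1 array. Differences are log2 fold changes from 1 limma model of the 8 groups with their standard error (SE), and a gene was called at an adjusted p (Benjamini-Hochberg over 20537 probe sets) under 0.05. Intensities of different probe sets are not on a common scale, and were compared only to pick the probe set of a gene. In whole lung, fewer cells of a type and less RNA per cell cannot be told apart. Pairs of arrays correlated with r between 0.919 and 0.966. Replicate 1 of Tnfr+/+ O3 72 h stood apart, with a Gapdh 3' to 5' ratio of 4.45, a sign of RNA integrity, against 0.89 to 1.74 on the others. That ratio was 1.28 to 1.56 on the 6 air arrays and 0.89 to 1.33 on the other 11 arrays of 48 and 72 h, and the part of RNA integrity in the results was not tested. The Tnfrsf1a probe set read 2030 to 3623 in Tnfr+/+ and 1399 to 2341 in Tnfr-/- lungs, and the 2 probe sets of Tnfrsf1b 356 to 525 and 151 to 266, and 108 to 293 and 104 to 222. Whether these probe sets lie in the deleted parts is not given in the sources used here. Surfactant and other type 2 cell markers, which define lung tissue, summed to 105380 to 119890 over 6 genes on all arrays, and none of the 6 was called after O3.

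Few members changed, and those that did changed mainly at 48 and 72 h. At 24 h no member was called in Tnfr+/+ lungs, where 0.0949% of all genes were called. By limma 2 members (Atr and Xrcc5) lay under an unadjusted p of 0.05, where 394 of 11597 genes were higher and 295 lower. The methods' t-test called no member at its own unadjusted threshold of 0.01. In Tnfr-/- lungs 1 member was called at 24 h, beside 1.31% of all genes. In Tnfr+/+ lungs 1 of 41 was called at 48 h and 2 at 72 h, beside 1.38% and 3.43% of all genes. In Tnfr-/- lungs 3 were called at 48 h and 4 at 72 h, beside 4.09% and 4.25%. All of these calls were rises, of Rad54l, H2ax, Ung, Msh6 and Nbn.

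The same arrays were then read together, as the mean of the 48 and 72 h groups of both genotypes (12 arrays, here the late lungs) minus the mean of both air groups (6 arrays). In that comparison 9 of 41 members were called, or 22%, against 13.1% of all genes. There were 6 rises (Rad54l, Ung, H2ax, Xrcc5, Msh6 and Mre11a) and 3 falls (Xpc, Ercc5 and Rad50), where 6.21% of all genes rose and 6.89% fell. The median log2 fold change was 0.02 over the members and -0.05 over all genes, and the remaining 32 members were not called. Rad54l and Ung passed the filter through arrays after O3 alone, but with no filter the same 9 members were called. The late comparison holds the arrays of the single times, so its counts are not further support for theirs. Members and lists were chosen with earlier results of these data known, so the shares called describe them and are no test. In fits by genotype, chosen after seeing the data, 2 members were called in Tnfr+/+ lungs (Rad54l and H2ax). In Tnfr-/- lungs 7 were called, 6 of them among the 9 (Rad54l, H2ax, Ung, Msh6, Mre11a and Xpc). The shares of all genes called in these 2 fits are not given here, so the counts are not read as a genotype difference. At single times more of all genes were called in Tnfr-/- lungs (4.09% and 4.25% at 48 and 72 h) than in Tnfr+/+ lungs (1.38% and 3.43%).

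**Figure D1:**
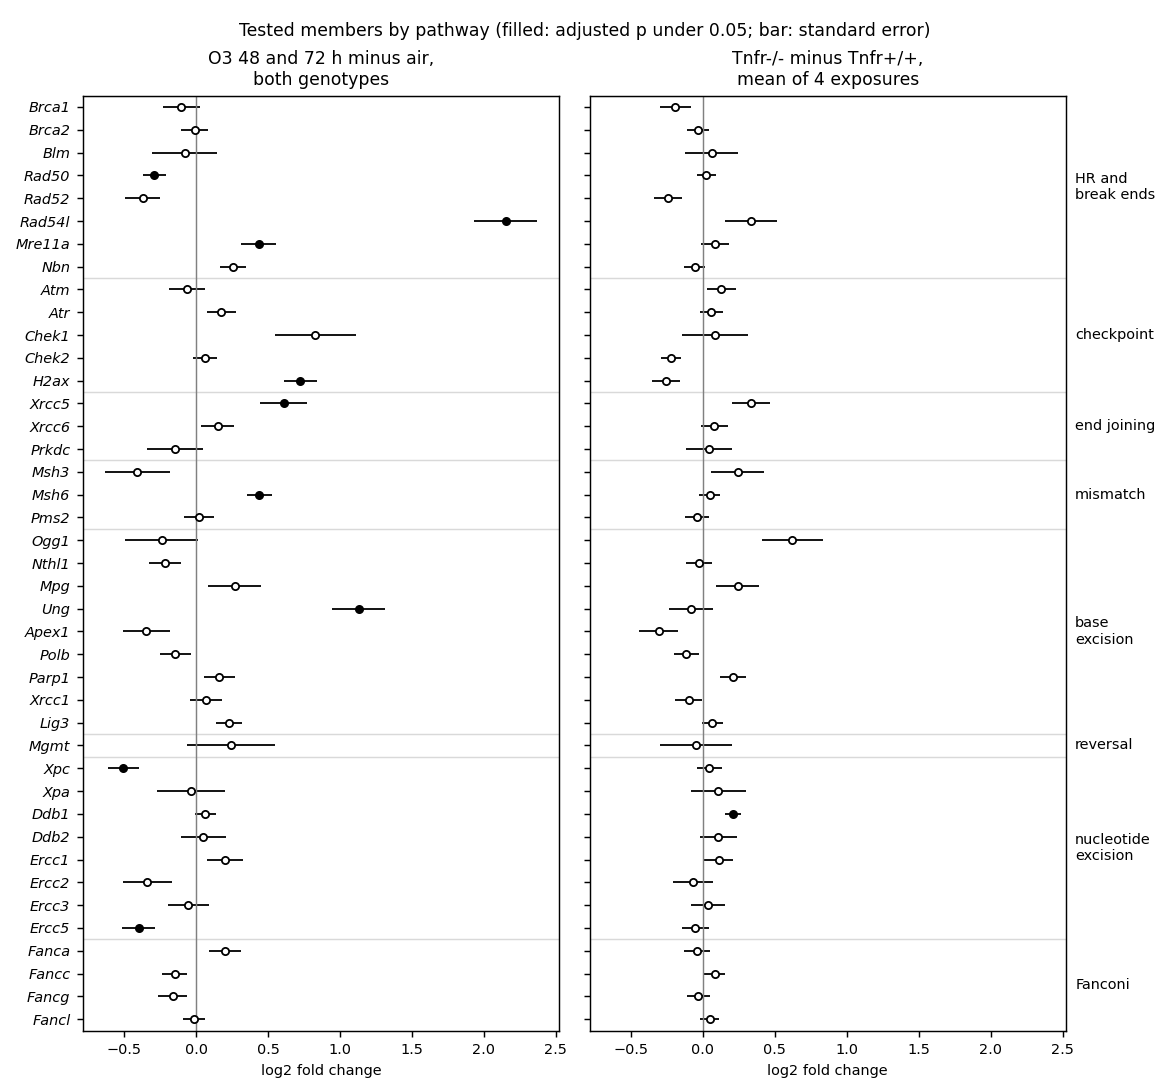
Log2 fold change with its standard error for each of the 41 tested members, in blocks by pathway (HR is homologous recombination), for the late lungs minus air on the left and Tnfr-/- minus Tnfr+/+ over the 4 exposures on the right. Filled points have an adjusted p under 0.05, 9 on the left and 1 on the right, and Rad54l at 2.15 lies farthest from 0.

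The stretches before the start sites were read for 3 short motifs known from cell cycle promoters, because 6 members rose. The motifs, searched on both strands, were the CCAAT box (CCAAT), the CHR element (TTTGAA) and 4 forms of the E2F site (TTTCGCGC, TTTGGCGC, TTTCCCGC and TTTGCCGC). No motif overlapped another in the sequences shown. A RefSeq window of 250 bases before to 50 after the start (build GRCm38.p6) was at hand for 38 of the 46 members. The CCAAT box was in 22 of the 38, or 57.9%, and in 37.4% of 32851 windows of all genes. An E2F form was in 8, or 21.1%, against 2.26% of all windows, and the CHR letters in 2, or 5.26%, against 17.9%. A member counted if any of its windows held the motif, whereas the shares over all genes count single windows. The shares are therefore on unlike units, and a member with several windows had more chances. Members with the E2F letters were Bard1, Fancg, Chek2, Brca2, Msh3, Xrcc6, Nthl1 and Msh6, and of these only Msh6 was called after O3. These matches describe letters in a window and name no site or cause.

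Of the 10 members called in any O3 comparison, Rad54l, Mre11a, Xrcc5, Msh6, Ercc5 and Ung had a window, and the first 5 held a motif. Their 250 bases before the start are shown 5′ to 3′ on the strand of the gene, with the motif letters in capitals, so that the rising and falling members can be set side by side. They lie on chr4:116123691-116123940 (Rad54l, minus strand), chr9:14784404-14784653 (Mre11a, plus), chr1:72307171-72307420 (Xrcc5, plus), chr17:87974800-87975049 (Msh6, plus) and chr1:44147494-44147743 (Ercc5, plus).
Rad54l: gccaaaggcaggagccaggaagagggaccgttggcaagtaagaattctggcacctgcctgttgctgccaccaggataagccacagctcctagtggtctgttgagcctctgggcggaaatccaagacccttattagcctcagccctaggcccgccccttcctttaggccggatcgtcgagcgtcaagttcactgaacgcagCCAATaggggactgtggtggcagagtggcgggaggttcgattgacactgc
Mre11a: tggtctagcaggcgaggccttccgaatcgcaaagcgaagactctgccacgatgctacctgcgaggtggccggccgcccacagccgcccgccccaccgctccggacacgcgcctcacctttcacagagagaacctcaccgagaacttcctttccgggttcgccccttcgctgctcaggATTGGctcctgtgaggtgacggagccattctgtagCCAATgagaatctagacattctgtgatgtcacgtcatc
Xrcc5: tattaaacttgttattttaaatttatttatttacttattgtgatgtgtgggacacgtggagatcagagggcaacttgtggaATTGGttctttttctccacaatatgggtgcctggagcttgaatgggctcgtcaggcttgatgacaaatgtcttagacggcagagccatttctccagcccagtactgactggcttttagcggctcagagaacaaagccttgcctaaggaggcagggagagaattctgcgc
Msh6: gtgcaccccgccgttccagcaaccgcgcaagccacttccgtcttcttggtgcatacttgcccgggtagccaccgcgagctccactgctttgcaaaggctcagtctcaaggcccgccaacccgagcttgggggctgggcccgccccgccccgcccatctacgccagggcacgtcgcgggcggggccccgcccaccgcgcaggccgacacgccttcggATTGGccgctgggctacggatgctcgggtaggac
Ercc5: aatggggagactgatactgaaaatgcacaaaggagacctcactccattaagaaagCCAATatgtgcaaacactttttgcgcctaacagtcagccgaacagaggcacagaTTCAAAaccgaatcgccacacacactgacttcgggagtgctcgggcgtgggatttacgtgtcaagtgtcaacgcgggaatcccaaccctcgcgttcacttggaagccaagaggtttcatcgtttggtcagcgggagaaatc
The CCAAT letters of Rad54l began 50 bases before the start, and those of Mre11a 73 and 38 bases before it, the farther one on the opposite strand. In Xrcc5 and Msh6 the box was on the opposite strand, its first printed base 169 and 34 bases before the start. Ercc5, a member that fell, held CCAAT from 195 bases before the start and the CHR letters, on the opposite strand, from 141 bases before it. The E2F letters of Msh6 lay past the start, in chr17:87975054-87975083 on the plus strand.
Msh6, past the start: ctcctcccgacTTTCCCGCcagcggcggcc

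Of the genes of homologous recombination and break ends, Rad54l rose the most. Rad54l, a DNA motor of homologous recombination, was below the filter value of 52.21 on all 6 air arrays. Rad54l intensity in Tnfr+/+ lungs was 22.9, 21.4 and 32.2 in air, 30.03, 22.8 and 76.5 after 24 h, 133, 55.5 and 86.0 after 48 h and 134, 86.9 and 125 after 72 h. Rad54l in Tnfr-/- lungs read 22.2, 23.1 and 24.2 in air, 72.1, 81.9 and 70.7 after 24 h, 132, 153 and 103 after 48 h and 118, 129.8 and 76.5 after 72 h. All 12 late arrays were above all 6 air arrays in both genotypes, and at 24 h the 3 Tnfr-/- arrays were up while 1 of 3 Tnfr+/+ arrays was. The late log2 fold change was 2.15 ± 0.22 (adjusted p = 2.68e-06). Rad54l was called at 48 h (1.78 ± 0.36, adjusted p = 0.0165) and 72 h (2.18 ± 0.36, adjusted p = 0.00231) in Tnfr+/+ lungs. It was called in Tnfr-/- lungs at 24 h (1.69 ± 0.36, adjusted p = 0.0245), 48 h (2.46 ± 0.36, adjusted p = 0.00056) and 72 h (2.19 ± 0.36, adjusted p = 0.0013).

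The call of Rad54l in Tnfr+/+ lungs at 48 h was lost without replicate 1 or 2 of air or replicate 1 or 3 of 48 h (adjusted p up to 0.087), and that in Tnfr-/- lungs at 24 h without any 1 of its 6 arrays (up to 0.104). Its other 2 probe sets did not move with it, at 0.35 ± 0.33 for 1423123_at (adjusted p = 0.55) and -0.36 ± 0.25 for 1423124_x_at (adjusted p = 0.407). They reached the filter value on 2 and 10 of 24 arrays. In air 1423124_x_at read 52.7, 63.8 and 55.3 in Tnfr+/+ and 46.2, 58.3 and 30.1 in Tnfr-/- lungs. These values were above those of 1450862_at, the probe set used, on every air array. The highest mean of 1450862_at thus rests on its values after O3. With all 3 probe sets averaged, the calls at single times were lost (adjusted p 0.14 to 0.47) and the late call was kept.

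Transcripts of the MRN complex, whose 3 subunits bind and trim broken ends, did not move together. Mre11a, the nuclease, rose. Mre11a intensity in Tnfr+/+ lungs was 127, 101 and 124 in air, 103, 153 and 111 after 24 h, 117, 138 and 110.0 after 48 h and 152, 155 and 142 after 72 h. Mre11a in Tnfr-/- lungs read 83.8, 94.9 and 130.2 in air, 102, 141 and 131 after 24 h, 156, 188 and 144 after 48 h and 199, 149.8 and 137 after 72 h. The late arrays of Tnfr-/- lungs were all above their air arrays, whereas those of Tnfr+/+ lungs overlapped air at 48 h. The late log2 fold change was 0.43 ± 0.12 (adjusted p = 0.0214), made of 0.05 and 0.35 in Tnfr+/+ and 0.67 and 0.66 in Tnfr-/- lungs, none of which was called alone. It was lost without Tnfr+/+ air replicate 2 or Tnfr-/- air replicate 1 or 2 (adjusted p up to 0.075), and in Tnfr+/+ lungs alone the difference was 0.20 (adjusted p = 0.613).

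Rad50, the long coiled-coil ATPase of the complex, fell. Rad50 intensity in Tnfr+/+ lungs was 613, 703 and 672 in air, 646, 671 and 649 after 24 h, 551, 487 and 487 after 48 h and 541, 629.7 and 563 after 72 h. Rad50 in Tnfr-/- lungs read 708, 611 and 731 in air, 588, 739.8 and 606 after 24 h, 680.3, 489.9 and 654 after 48 h and 523, 501.3 and 528 after 72 h. In Tnfr+/+ lungs the 48 h arrays were all below air, in Tnfr-/- lungs the 72 h arrays were, and the other late groups overlapped air. The late log2 fold change was -0.29 ± 0.08 (adjusted p = 0.0217), and it was lost without Tnfr+/+ air replicate 2 or 3 or Tnfr-/- air replicate 1 or 3 (adjusted p up to 0.0697). The other probe set of Rad50 stood at -0.12 ± 0.16 (adjusted p = 0.713), and the mean of both was not called (adjusted p = 0.22).

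Nbn, the subunit that recruits the kinase ATM, was called in a single comparison. Nbn intensity in Tnfr+/+ lungs was 271, 217 and 259 in air, 220.0, 226 and 198 after 24 h, 272, 244 and 205 after 48 h and 241, 306 and 272 after 72 h. Nbn in Tnfr-/- lungs read 182, 223 and 166 in air, 223, 269 and 199 after 24 h, 264, 245 and 235 after 48 h and 276, 271 and 283 after 72 h. Of the 24 arrays the lowest 2 were Tnfr-/- air arrays, and the 72 h arrays of that genotype lay from 271 to 283, all above their air arrays. Nbn rose at 72 h in Tnfr-/- lungs (0.55 ± 0.15, adjusted p = 0.0414), and the late value over both genotypes, 0.25 ± 0.09, was not called (adjusted p = 0.0719). The 72 h call was lost without Tnfr-/- air replicate 1 or 3 or any 1 of the 3 arrays of 72 h (adjusted p up to 0.186), and with the intensities as deposited (adjusted p = 0.054).

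Brca1, which acts in homologous recombination with BRCA2, was read differently by its probe sets. The one with the highest mean, 1427698_at, stood at -0.10 ± 0.13 late (adjusted p = 0.679), with 149.95 to 342 over all 24 arrays. Brca1 probe set 1424629_at read 46.9, 53.7 and 57.3 in air, 59.0, 73.0 and 44.2 after 24 h, 103, 123 and 109 after 48 h and 131, 94.7 and 131 after 72 h in Tnfr+/+ lungs. 1424629_at in Tnfr-/- lungs read 55.7, 61.5 and 42.8 in air, 55.5, 54.6 and 79.5 after 24 h, 143, 166 and 143 after 48 h and 179.7, 133 and 166 after 72 h. All 12 late arrays were above the 6 air arrays on this probe set, and at 24 h 4 of 6 arrays lay within the range of air. It rose by 1.34 ± 0.12 late (adjusted p = 7.17e-07), and was called at 48 h (1.09, adjusted p = 0.00904) and 72 h (1.16, adjusted p = 0.00302) in Tnfr+/+ lungs. It was also called at 48 h (1.51, adjusted p = 0.000199) and 72 h (1.58, adjusted p = 9.73e-05) in Tnfr-/- lungs. Where along the transcript each probe set lies is not given in the sources used here.

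A further Brca1 probe set, 1451417_at, reached the filter value on 1 array alone. Brca1 probe set 1451417_at read 4.91, 6.01 and 10.7 in air, 3.76, 10.5 and 8.45 after 24 h, 4.47, 4.13 and 8.67 after 48 h and 4.66, 4.27 and 14.2 after 72 h in Tnfr+/+ lungs. In Tnfr-/- lungs it read 3.61, 10.8 and 9.40 in air, 3.57, 5.38 and 12.1 after 24 h, 20.7, 24.5 and 34.8 after 48 h and 43.2, 14.2 and 74.1 after 72 h. The late Tnfr-/- arrays were above their air arrays, and the late Tnfr+/+ arrays overlapped air. It was called at 72 h in Tnfr-/- lungs (2.32 ± 0.63, adjusted p = 0.0449) and not late over both genotypes (0.95 ± 0.39, adjusted p = 0.12). The 72 h call was lost without any 1 of the 3 Tnfr-/- air arrays or replicate 1 or 3 of 72 h (adjusted p up to 0.2), and with no filter (adjusted p = 0.052).

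The other members of the pathway were not called. Rad52, an annealing protein, stood just outside the threshold, at -0.37 ± 0.12 (adjusted p = 0.0534) and at -0.40 ± 0.17 on its other probe set (adjusted p = 0.151). Brca2 was at -0.01 ± 0.09 (adjusted p = 0.968), and Blm, the helicase that dissolves crossed strands, at -0.08 ± 0.23 (adjusted p = 0.872). Bard1, the partner of BRCA1, read 7.32 to 14.4 over the 24 arrays and was not tested.

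**Figure D2:**
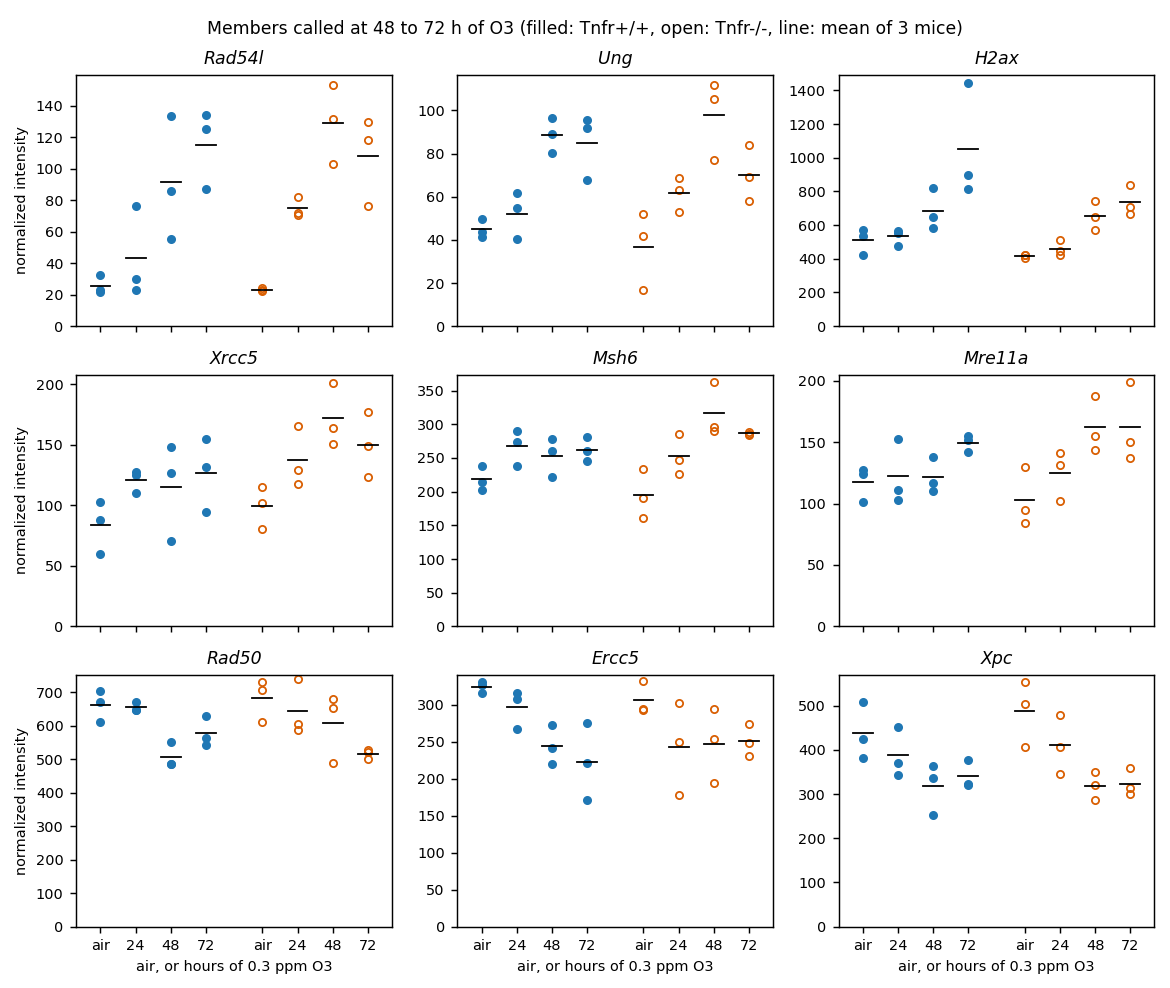
Normalized intensity (linear axis from 0) of the 9 members called in the late lungs, by array and group, with Tnfr+/+ filled on the left of each panel, Tnfr-/- open on the right and the mean of 3 mice as a line. Rad54l, Ung and H2ax lie higher on every late array than on any air array, Xpc lies lower on every late array, and the groups of the other 5 overlap.

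Of the checkpoint genes, H2ax rose and the kinases were not called by their highest-mean probe sets. H2ax encodes the histone variant that is phosphorylated around breaks, and it is also made for new chromatin. H2ax intensity in Tnfr+/+ lungs was 533, 569.9 and 424 in air, 478, 554 and 565 after 24 h, 584, 648 and 820.0 after 48 h and 1442, 813 and 899.9 after 72 h. H2ax in Tnfr-/- lungs read 406, 423 and 419.6 in air, 444, 509 and 422 after 24 h, 646, 743 and 573 after 48 h and 665, 708 and 841 after 72 h. All 12 late arrays, from 573, were above all air arrays, the 24 h arrays overlapped air, and the highest value, 1442, was on the array with the high Gapdh ratio. H2ax rose by 0.72 ± 0.12 late (adjusted p = 0.000353), by 1.01 ± 0.19 at 72 h in Tnfr+/+ lungs (adjusted p = 0.00543) and by 0.82 ± 0.19 in Tnfr-/- lungs (adjusted p = 0.0176). Without that array the Tnfr+/+ rise was still called. The Tnfr-/- call at 72 h was lost without air replicate 1 or 3 or 72 h replicate 2 or 3 (adjusted p up to 0.0892). At 48 h H2ax was at 0.42 ± 0.19 (adjusted p = 0.383) and 0.64 ± 0.19 (adjusted p = 0.0633).

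Chek1, the kinase that restrains origin firing when forks stall, was near the filter value. Its highest-mean probe set stood at 0.83 ± 0.28 late (adjusted p = 0.0599), and its difference at 24 h in Tnfr-/- lungs was -1.33 (adjusted p = 0.2). The arrays of that group read 29.3, 38.8 and 9.60, against 70.2, 50.8 and 48.3 in air. In the same comparison 1450677_at stood at 1.16 ± 0.64 (adjusted p = 0.488) and 1420031_at at -0.41 ± 0.92 (adjusted p = 0.912). Chek1 probe set 1450677_at, which reached the filter value on 9 late arrays and on 0 of 6 air arrays, read 22.1, 22.8 and 5.74 in air, 6.85, 7.47 and 17.2 after 24 h, 41.2, 72.3 and 43.4 after 48 h and 65.7, 65.1 and 78.8 after 72 h in Tnfr+/+ lungs. 1450677_at in Tnfr-/- lungs read 23.9, 49.9 and 4.60 in air, 34.8, 45.5 and 39.0 after 24 h, 82.4, 117 and 67.5 after 48 h and 66.1, 45.0 and 80.2 after 72 h. All late arrays but 3 were above the highest air array, and the air arrays themselves ran from 4.60 to 49.9. It rose by 2.06 ± 0.39 late (adjusted p = 0.00169) and was not called at any single time. The third tested probe set, 1420031_at, stood at 0.69 ± 0.56 (adjusted p = 0.475).

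The apical kinases Atm and Atr, which answer to breaks and to single-stranded DNA, stood at -0.06 ± 0.12 (adjusted p = 0.804) and 0.18 ± 0.10 (adjusted p = 0.275) late. Chek2, the kinase downstream of ATM, was at 0.06 ± 0.08 (adjusted p = 0.704), with 193 to 312 over all 24 arrays. None of the 3 was called in any of the 15 comparisons.

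Of the end joining genes, Xrcc5 rose. It encodes Ku80, which with Ku70 from Xrcc6 forms the ring that holds broken ends. Xrcc5 intensity in Tnfr+/+ lungs was 103, 59.6 and 88.0 in air, 127, 125 and 110.2 after 24 h, 148, 127 and 70.2 after 48 h and 94.4, 132 and 155 after 72 h. Xrcc5 in Tnfr-/- lungs read 115, 102 and 80.9 in air, 166, 129 and 118 after 24 h, 151, 201 and 164 after 48 h and 149, 124 and 177 after 72 h. All arrays after O3 in Tnfr-/- lungs were above their air arrays, 24 h included, and in Tnfr+/+ lungs 1 array of 48 h and 1 of 72 h lay within the range of air. The late log2 fold change was 0.61 ± 0.16 (adjusted p = 0.0176), with 0.57 and 0.47 at 24 h, and no single time was called. The late call was lost without Tnfr+/+ air replicate 2 or Tnfr-/- air replicate 3 (adjusted p up to 0.0647) and by the methods' t-test after adjustment (adjusted p = 0.06). Xrcc6 was at 0.15 ± 0.12 (adjusted p = 0.462) and Prkdc, the kinase that Ku activates, at -0.14 ± 0.19 (adjusted p = 0.699).

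Of the mismatch repair genes, Msh6 rose. It takes part in finding mispaired bases behind the replication fork, and its promoter holds the CCAAT and E2F letters shown above. Msh6 intensity in Tnfr+/+ lungs was 215, 238 and 203 in air, 238, 289.8 and 273 after 24 h, 261, 278 and 222 after 48 h and 245, 281 and 260.2 after 72 h. Msh6 in Tnfr-/- lungs read 160.4, 190.3 and 234 in air, 226, 248 and 285 after 24 h, 290.0, 363 and 296 after 48 h and 286, 288 and 285 after 72 h. The late Tnfr-/- arrays were all above their air arrays, and the 3 at 72 h lay within 285 to 288. In Tnfr+/+ lungs the 48 h arrays overlapped air. Msh6 rose by 0.44 ± 0.09 late (adjusted p = 0.00266), by 0.71 ± 0.14 at 48 h in Tnfr-/- lungs (adjusted p = 0.00739) and by 0.57 ± 0.14 at 72 h (adjusted p = 0.0304). The Tnfr+/+ values, 0.21 ± 0.14 (adjusted p = 0.633) and 0.26 ± 0.14 (adjusted p = 0.355), were not called.

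The Tnfr-/- call of Msh6 at 48 h was lost without 48 h replicate 2 (adjusted p = 0.0594), and that at 72 h without air replicate 1 or 2 or any 1 array of 72 h (adjusted p up to 0.155). Msh3, which takes part in finding larger loops, stood at -0.41 ± 0.23 late (adjusted p = 0.266). At 72 h in Tnfr+/+ lungs Msh3 read 26.1, 48.1 and 113, against 92.9, 114 and 115 in air, and the difference of -1.03 ± 0.37 was not called (adjusted p = 0.138). The lowest value was on replicate 1, the array with the high Gapdh ratio. Its other tested probe set had the opposite sign there, at 0.22 ± 0.25 (adjusted p = 0.703). Pms2, which nicks the strand to be replaced, was at 0.02 ± 0.10 (adjusted p = 0.926).

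Of the 12 base excision genes 9 were tested, and Ung alone was called on its highest-mean probe set. Ung removes uracil that was put into new DNA or came from cytosine. Ung intensity in Tnfr+/+ lungs was 49.5, 43.7 and 41.3 in air, 61.5, 40.4 and 54.7 after 24 h, 89.2, 80.1 and 96.3 after 48 h and 95.7, 91.8 and 67.5 after 72 h. Ung in Tnfr-/- lungs read 52.1, 41.7 and 16.6 in air, 63.2, 52.95 and 68.8 after 24 h, 112, 105 and 77.1 after 48 h and 69.1, 83.8 and 57.8 after 72 h. No air array reached the filter value, all 12 late arrays did, and the lowest air value, 16.6, was in Tnfr-/- replicate 3. Ung rose by 1.13 ± 0.18 late (adjusted p = 0.000438) and by 1.55 ± 0.30 at 48 h in Tnfr-/- lungs (adjusted p = 0.00551). At 72 h it stood at 1.07 ± 0.30 in Tnfr-/- (adjusted p = 0.0522) and 0.91 ± 0.30 in Tnfr+/+ lungs (adjusted p = 0.108), and at 48 h at 0.98 ± 0.30 in Tnfr+/+ lungs (adjusted p = 0.143). Taken alone, the late Tnfr+/+ lungs differed from air by 0.95 (adjusted p = 0.0549).

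The glycosylases for oxidised and alkylated bases were not called. Ogg1, the enzyme for 8-oxoguanine, a base that oxidants make, stood at -0.24 ± 0.26 (adjusted p = 0.608) and at -0.03 ± 0.12 on its other probe set (adjusted p = 0.922). Ogg1 values spread widely within groups, from 51.9 to 225 at 24 h in Tnfr+/+ lungs. Nthl1, for oxidised pyrimidines, was at -0.21 ± 0.11 (adjusted p = 0.239), and Mpg, for alkylated purines, at 0.27 ± 0.18 (adjusted p = 0.385).

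The later steps of base excision gave calls on secondary probe sets. Apex1 encodes the endonuclease that cuts at the emptied site. Its highest-mean probe set, 1437715_x_at, stood at -0.35 ± 0.16 late (adjusted p = 0.187), and ran from 797 to 1202 at 48 h in Tnfr-/- lungs against 924 to 1853 in air. Apex1 probe set 1416135_at read 312, 313 and 317 in air, 391, 398 and 298 after 24 h, 426, 337 and 339.7 after 48 h and 384, 394 and 421 after 72 h in Tnfr+/+ lungs. 1416135_at in Tnfr-/- lungs read 286, 301 and 288 in air, 461, 351 and 394 after 24 h, 423, 461 and 379 after 48 h and 391, 388 and 429 after 72 h. Every late array was above every air array, and in Tnfr-/- lungs so was every array of 24 h. It rose by 0.39 ± 0.08 late (adjusted p = 0.00362) and by 0.52 ± 0.13 at 48 h in Tnfr-/- lungs (adjusted p = 0.0315), a call lost without any 1 of the 3 air arrays or replicate 1 or 2 of 48 h (adjusted p up to 0.15). The 2 probe sets thus had opposite signs, and the third, 1456079_x_at, stood at 0.18 ± 0.16 (adjusted p = 0.528). The suffix _x_at marks probe sets whose probes may also match other sequences.

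Polb, the polymerase that fills the gap, fell on 1 of 3 probe sets. Polb probe set 1425371_at read 244, 239 and 256 in air, 245, 222 and 266 after 24 h, 193, 223 and 258 after 48 h and 198, 176 and 188 after 72 h in Tnfr+/+ lungs. 1425371_at in Tnfr-/- lungs read 345, 278 and 285 in air, 289, 204 and 239 after 24 h, 246, 186 and 180.0 after 48 h and 205, 163 and 148 after 72 h. The Tnfr-/- late arrays were all below their air arrays, and in Tnfr+/+ lungs those of 72 h were. The difference was -0.49 ± 0.10 late (adjusted p = 0.00297) and -0.82 ± 0.16 at 72 h in Tnfr-/- lungs (adjusted p = 0.00574). In Tnfr+/+ lungs alone it was -0.27 (adjusted p = 0.355). The highest-mean probe set stood at -0.15 ± 0.11 (adjusted p = 0.428) and 1434229_a_at at -0.002 ± 0.11 (adjusted p = 0.994). Parp1, which senses nicks, was at 0.16 ± 0.11 (adjusted p = 0.378), Xrcc1, the scaffold of nick repair, at 0.07 ± 0.11 (adjusted p = 0.765), and its ligase Lig3 at 0.23 ± 0.09 (adjusted p = 0.111).

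**Figure D3:**
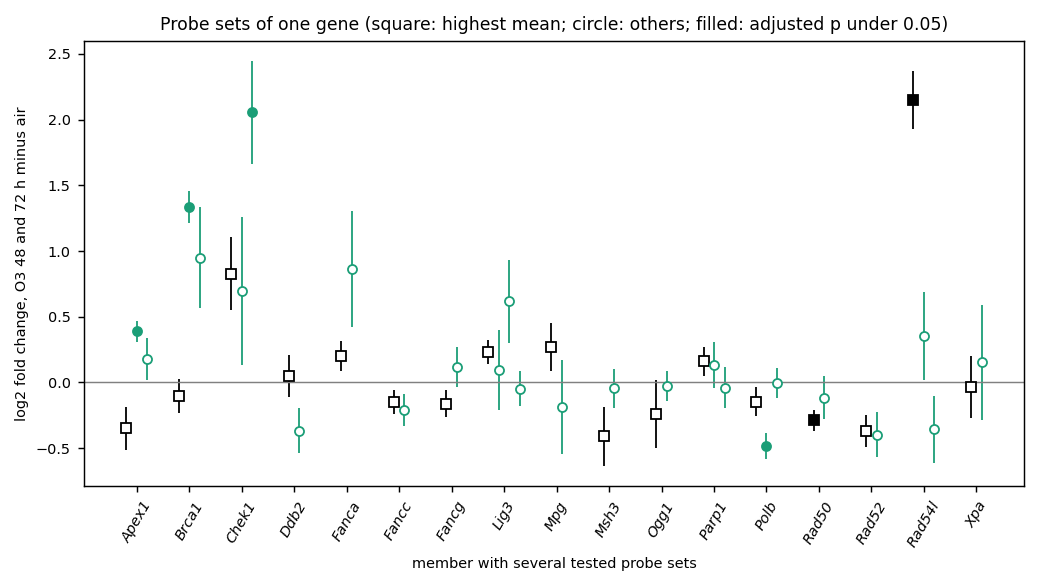
Late log2 fold change with its standard error for the 17 members with several tested probe sets, the highest-mean probe set as a square and the other 25 as circles, filled where the adjusted p was under 0.05. Brca1, Chek1, Apex1 and Polb each have a filled circle beside an open square, and Rad54l has a filled square at 2.15 beside 2 open circles.

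Mgmt, the direct reversal enzyme that takes methyl groups off guanine, was hardly detected. Mgmt intensity in Tnfr+/+ lungs was 22.3, 14.0 and 18.3 in air, 26.6, 17.3 and 19.3 after 24 h, 13.9, 24.8 and 31.1 after 48 h and 116, 31.7 and 12.6 after 72 h. Mgmt in Tnfr-/- lungs read 27.1, 25.8 and 20.9 in air, 23.7, 21.2 and 21.7 after 24 h, 19.3, 19.6 and 26.1 after 48 h and 23.9, 25.7 and 17.3 after 72 h. Only 1 of 24 arrays, Tnfr+/+ O3 72 h replicate 1 with the high Gapdh ratio, was above the filter value. The late log2 fold change was 0.24 ± 0.31 (adjusted p = 0.677).

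Of the 8 nucleotide excision genes tested, 2 were called lower late and none higher, where 6.89% of all genes fell and 6.21% rose. The median late log2 fold change over the 8 was -0.05. Xpc encodes the protein that finds distorted DNA across the genome. Xpc intensity in Tnfr+/+ lungs was 381, 425 and 508 in air, 371, 343 and 452 after 24 h, 365, 252 and 337 after 48 h and 377, 323 and 321 after 72 h. Xpc in Tnfr-/- lungs read 406, 505 and 555 in air, 479, 345 and 408 after 24 h, 350.4, 285 and 321 after 48 h and 313, 299.6 and 359 after 72 h. The late arrays ran from 252 to 377 and the air arrays from 381 to 555, without overlap, and the 24 h arrays overlapped both. The late difference of Xpc was -0.50 ± 0.11 (adjusted p = 0.00365). The single times were not called, at -0.47 and -0.36 in Tnfr+/+ lungs (adjusted p = 0.254 and 0.287) and -0.61 and -0.58 in Tnfr-/- lungs (adjusted p = 0.0559 and 0.0658).

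Ercc5 encodes XPG, the nuclease that cuts on the 3′ side of the lesion. Ercc5 intensity in Tnfr+/+ lungs was 326, 330.2 and 316 in air, 267, 316 and 307 after 24 h, 272, 241 and 219 after 48 h and 274, 221 and 172 after 72 h. Ercc5 in Tnfr-/- lungs read 293, 332 and 294 in air, 178, 249 and 302 after 24 h, 254, 193 and 294 after 48 h and 229.9, 249 and 273 after 72 h. In Tnfr+/+ lungs all late arrays were below air, and in Tnfr-/- lungs 1 array of 48 h, at 294, reached the air range of 293 to 332. The late difference of Ercc5 was -0.40 ± 0.12 (adjusted p = 0.0308), a call lost without any 1 of the 6 air arrays or Tnfr-/- 48 h replicate 2 (adjusted p up to 0.0807). By genotype the values were -0.49 in Tnfr+/+ (adjusted p = 0.124) and -0.31 in Tnfr-/- lungs (adjusted p = 0.305).

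The other members of nucleotide excision stayed uncalled after O3. Xpa, which checks the lesion, was at -0.04 ± 0.24 (adjusted p = 0.945), with a lone high value of 404 in Tnfr+/+ O3 72 h replicate 1. The damage-binding pair Ddb1 and Ddb2 stood at 0.06 ± 0.07 (adjusted p = 0.636) and 0.05 ± 0.16 (adjusted p = 0.886). Ercc1, part of the 5′ nuclease, was at 0.20 ± 0.12 (adjusted p = 0.32). The helicases of TFIIH, Ercc2 and Ercc3, were at -0.34 ± 0.17 (adjusted p = 0.215) and -0.05 ± 0.14 (adjusted p = 0.863).

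The 4 Fanconi anaemia genes, which act on strands that are crosslinked, were called in no comparison by their highest-mean probe sets. Among those Fancg had the smallest adjusted p, at 72 h in Tnfr+/+ lungs. Fancg intensity in Tnfr+/+ lungs was 284, 302 and 345 in air, 270.1, 232 and 294 after 24 h, 255, 285 and 319 after 48 h and 196, 179.9 and 247 after 72 h. Fancg in Tnfr-/- lungs read 272, 227 and 277 in air, 202, 281 and 266 after 24 h, 279.7, 329 and 243 after 48 h and 251, 271 and 217 after 72 h. The 3 Tnfr+/+ arrays of 72 h were below the air arrays, and the difference was -0.59 ± 0.17 (adjusted p = 0.0594). Late, Fancg was at -0.16 ± 0.10 and at 0.12 ± 0.15 on its other probe set (adjusted p = 0.333 and 0.684). Fanca, Fancc and Fancl, all parts of the same core complex, stood at 0.20 ± 0.11, -0.15 ± 0.09 and -0.01 ± 0.08 (adjusted p = 0.272, 0.305 and 0.934).

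The other probe set of Fancc, 1447632_at, was lower in Tnfr-/- lungs. Fancc probe set 1447632_at read 339, 477 and 267 in air, 411, 482 and 372 after 24 h, 321, 391 and 398 after 48 h and 464, 317 and 405 after 72 h in Tnfr+/+ lungs. In Tnfr-/- lungs it read 319, 356 and 328 in air, 363, 412 and 329 after 24 h, 209, 188 and 284 after 48 h and 231, 214 and 273 after 72 h. The genotypes overlapped in air and at 24 h, and at 48 and 72 h all Tnfr-/- arrays were below all Tnfr+/+ arrays. The log2 difference over the 4 exposures was -0.42 ± 0.10 (adjusted p = 0.0199), with -0.07 in air, -0.19 at 24 h, -0.72 at 48 h and -0.71 at 72 h. It was called in every fit that left out 1 array (adjusted p up to 0.0404) and lost by the methods' t-test after adjustment (adjusted p = 0.068). The highest-mean probe set of Fancc stood at 0.08 ± 0.07 (adjusted p = 0.542).

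**Figure D4:**
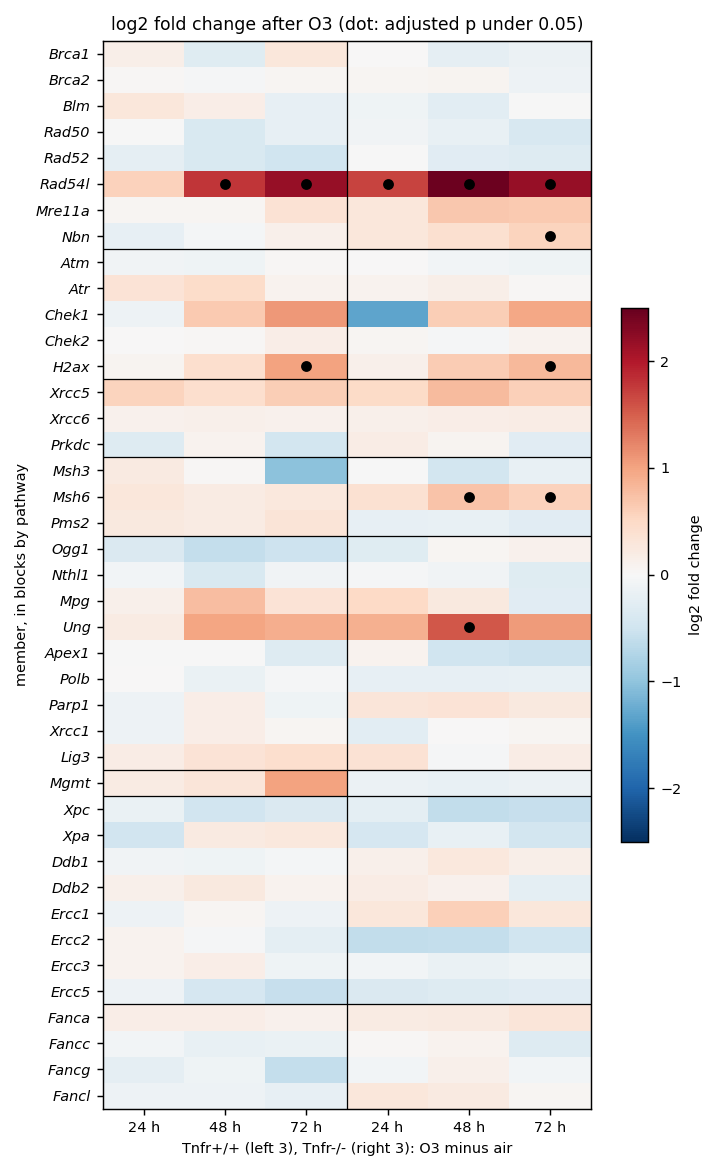
Log2 fold change of the 41 members against air of the same genotype, with 3 columns of 24, 48 and 72 h for Tnfr+/+ on the left and 3 for Tnfr-/- on the right, in blocks by pathway, red for higher and blue for lower. Dots mark an adjusted p under 0.05, and they fall on Rad54l, Nbn, H2ax, Msh6 and Ung only.

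Between the genotypes few members differed. No member was called in air, at 24 h, at 48 h or at 72 h by limma, beside 0.069%, 1.05%, 0.147% and 0.129% of all genes. Under an unadjusted p of 0.05 by limma lay 1, 4, 6 and 4 members. Of all 11597 genes, 323 were higher and 432 lower at that unadjusted threshold in air, and 673 and 857 at 24 h. They were 439 and 652 at 48 h, and 527 and 670 at 72 h. By the methods' t-test at that unadjusted threshold the member counts were 1, 2, 5 and 3, and after adjustment it called none. Over the mean of the 4 exposures 1 of 41 members was called by its highest-mean probe set, Ddb1, beside 4.62% of all genes. Of the 25 other probe sets 2 were called there, 1447632_at of Fancc, described above, and 1451417_at of Brca1 (1.15 ± 0.31, adjusted p = 0.0384). The latter, under the filter value on 23 of 24 arrays, lost its call in 15 of 24 fits that left out 1 array (Tnfr+/+ air replicates 1 and 2, 24 h replicate 1, 48 h replicates 1 and 2 and 72 h replicates 1 and 2, and Tnfr-/- air, 24 h and 48 h replicates 2 and 3 and 72 h replicates 1 and 3), with an adjusted p up to 0.0678, and with a floor of 16 (adjusted p = 0.085). Interactions of genotype and O3, which ask whether the response differed, were called for no member at 24, 48 or 72 h by limma. Of all genes 0.0172%, 0% and 0.00862% were called. At an unadjusted p under 0.05 by limma there were 3, 4 and 2 members. Of all 11597 genes, 371, 293 and 287 were higher and 381, 361 and 315 lower at that unadjusted threshold. For Rad54l, called at 24 h in Tnfr-/- and not in Tnfr+/+ lungs, the interaction was 1.11 ± 0.51 (adjusted p = 0.781). For Msh6 at 48 h it was 0.50 ± 0.20 (adjusted p = 0.847) and for Mre11a 0.63 ± 0.27 (adjusted p = 0.885), so a difference in response was not shown.

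Ddb1, the adaptor of the damage-binding ligase that also serves other CUL4 ligases, was higher in Tnfr-/- lungs. Ddb1 intensity in Tnfr+/+ lungs was 1627, 1635 and 1852 in air, 1728, 1622 and 1485 after 24 h, 1671, 1703 and 1392 after 48 h and 1448, 1716 and 1774 after 72 h. Ddb1 in Tnfr-/- lungs read 1721, 1625 and 1816 in air, 1942, 1709.6 and 2003 after 24 h, 1985, 2127 and 2048 after 48 h and 1880.4, 2099.6 and 1778 after 72 h. The genotypes overlapped in air and at 24 h and did not at 48 and 72 h. The log2 difference over the 4 exposures was 0.21 ± 0.06 (adjusted p = 0.0418), made of 0.01 in air, 0.23 at 24 h, 0.38 at 48 h and 0.22 at 72 h. The call was lost in 14 of 24 fits that left out 1 array (Tnfr+/+ air replicates 1 and 2, 24 h replicates 2 and 3, 48 h replicate 3 and 72 h replicate 1, and Tnfr-/- air replicates 1 and 3, 24 h replicates 1 and 3, 48 h replicates 1, 2 and 3 and 72 h replicate 2), with an adjusted p up to 0.0784. With the replicate number as a block it was 0.0579. Ogg1 had a larger but noisier difference of 0.62 ± 0.21 (adjusted p = 0.0823), and its other probe set stood at 0.14 ± 0.09 (adjusted p = 0.395). Chek2 stood at -0.22 ± 0.07 (adjusted p = 0.0641).

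Other repair genes, from a list of 71 of which 49 were tested, gave 8 rises and 1 fall late, or 18.4%, beside 13.1% of all genes. Those that rose with the smallest adjusted p were Lig1, the ligase of the lagging strand, Pcna, the sliding clamp, Topbp1, an activator of ATR, Rad51ap1, a homologous recombination factor, Rad23b, a partner of XPC, and Rpa2, which coats single strands. Their log2 fold changes were 0.72 ± 0.08, 0.76 ± 0.10, 0.72 ± 0.10, 0.80 ± 0.12, 0.42 ± 0.09 and 0.46 ± 0.11, with adjusted p from 3.87e-06 for Lig1 to 0.00757 for Rpa2. Rnf8, a ubiquitin ligase at breaks, was the gene that fell, by 0.28 on the log2 scale with an SE of 0.08 (adjusted p = 0.019). Lig1 rose in all 4 late groups, from 0.64 ± 0.12 in Tnfr+/+ lungs at 48 h to 0.76 ± 0.12 at 72 h. The median over the 49 genes was 0.003.

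Genes known as outputs of p53, the factor that checkpoint kinases activate, did not move one way. Of 18 listed and 16 tested, 3 were called late, or 18.8%, beside 13.1% of all genes. Sesn2 rose late by 0.67 ± 0.21 (adjusted p = 0.0419), and Btg2 and Sesn1 differed by -0.52 ± 0.13 and -0.46 ± 0.11 (adjusted p = 0.00983 and 0.0106). Cdkn1a, the cyclin kinase inhibitor, was not called after O3, and was lower in Tnfr-/- than in Tnfr+/+ lungs over the 4 exposures (-0.54 ± 0.13, adjusted p = 0.0245). Plk2 was higher in Tnfr-/- lungs (0.43 ± 0.10, adjusted p = 0.0157).

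Genes of cell division rose at 48 and 72 h, beside most of the called members. Of 23 tested, 20 rose late with a median log2 fold change of 1.53, and 0 were called at 24 h in either genotype. At 48 and 72 h 10 and 17 of them rose in Tnfr+/+ lungs and 15 and 20 in Tnfr-/- lungs. Their summed intensity was 3445 to 3547 in Tnfr+/+ air and 2683 to 2982 in Tnfr-/- air, 5843 to 7508 and 5668 to 7687 at 48 h, and 8607 to 11198 and 10164 to 10440 at 72 h. Of 22 DNA replication genes 17 rose late, with a median of 0.82. The part of dividing cells in the rises of Rad54l, Ung, H2ax, Msh6 and the Brca1 and Chek1 probe sets was not tested.

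Markers of other cells moved as well. Of 8 alveolar macrophage markers 3 rose late (Plet1, Chil3 and Marco), with the sum at 9398 to 12129 in air and 14552 to 31329 in the late lungs. Of 4 club cell markers Cyp2f2 fell, and no neutrophil or T cell marker and no B cell marker was called late. At an unadjusted p under 0.05 by limma, 4 of 8 B cell markers were lower late and 0 higher, with a median of -0.28. At that threshold 3 of 4 club cell markers were lower late and 0 higher, with a median of -0.19. Of all 11597 genes, 1324 were higher and 1818 lower there. The neutrophil sum was 3199 to 4396 in Tnfr+/+ and 1544 to 2458 in Tnfr-/- air, and 1288 to 2018 and 1872 to 4717 at 24 h. Of 9 liver genes 3 fell late (Apoa1, Alb and Ttr). At 48 and 72 h 2 and 2 were called lower in Tnfr+/+ lungs, and 0 and 0 in Tnfr-/- lungs. The median log2 fold changes were -1.24 and -1.43 in Tnfr+/+ and -0.09 and 0.01 in Tnfr-/- lungs. The sum of the liver genes was 1938 to 2885 in Tnfr+/+ air against 933 to 1310 in Tnfr-/- air. In Tnfr-/- lungs alone, Rad50, Xrcc5 and Ercc5 of the 9 members called late were not called (adjusted p 0.14, 0.078 and 0.3). Between genotypes, 5 of 8 B cell markers were higher in Tnfr-/- lungs at 24 h, Cd79a by 1.55 ± 0.30 (adjusted p = 0.0179), with their sum at 4902 to 6234 against 2256 to 2588 in Tnfr+/+ lungs. Over the 4 exposures Cd79a and Fcer2a were higher (0.54 ± 0.15 and 0.47 ± 0.14, adjusted p = 0.0397 and 0.0495) and the T cell marker Cd3d was lower (-1.45 ± 0.22, adjusted p = 0.000892), as 1 of 6 T cell markers. The part of these cells in the members' changes, those of Rad54l at 24 h and of Ddb1 and Fancc included, was not tested.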

How the data were processed

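Total RNA from the left lung of 24 mice was hybridised to MOE430A arrays. The deposited intensity values were MAS5 signals on a linear scale, made by the authors with Affymetrix Expression Console per the submitters' processing notes. Here the 22644 probe sets, less 64 controls after normalization, were quantile normalized, floored at 1 and log2 transformed, and 20537 that reached the 20th percentile (52.21) on at least 1 array were kept. One limma model (limma 3.58.1, R 4.3.3) of the 8 groups gave 15 contrasts with Benjamini-Hochberg adjustment, on 16 residual degrees of freedom. The script was tested on simulated data. Of the probe sets, 20338 named 1 gene, 691 several and 1551 none on the platform annotation, and the highest-mean probe set stood for a gene. P-values measure the spread between mice. Array signals give no counting depth, and 3 mice a group limit the precision.

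Members, pathways and the other lists were chosen with earlier results of these data known. Per-array values were named for members called in any comparison, for the smallest-p member of a pathway with none, and for a further probe set that was called where the gene's first was not. No pairing of mice by replicate number was seen (deviations of same-numbered arrays correlated with r from -0.181 to 0.115), so no block was used. Alternatives changed the scaling, filter, floor, weights, samples, test and probe set rule, and left out each array.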

Additional observations from a re-analysis of the deposited data

How the results depend on the processing

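Intensities as deposited, cyclic loess scaling, no filter and a floor of 16 left each count of called members within 1.5 times. With only the 6 arrays compared in the fit, the counts at 48 and 72 h fell from 1 and 2 to 0 and 0 in Tnfr+/+ lungs and from 3 and 4 to 1 and 1 in Tnfr-/- lungs. With the methods' t-test after adjustment they were 0 and 0, and 1 and 0, and at 24 h in Tnfr-/- lungs 0 in place of 1. With the filter at the median probe set, or the mean of all probe sets of a gene, the single calls in Tnfr+/+ lungs at 48 h and in Tnfr-/- lungs at 24 h became 0. In Tnfr-/- lungs at 48 h array quality weights gave 9 and an intensity trend 5. At an unadjusted p under 0.01 limma gave 3 and 5 at 48 and 72 h in Tnfr+/+ lungs. In Tnfr-/- lungs it gave 3, 8 and 8 at 24, 48 and 72 h. The t-test gave 2 in Tnfr+/+ lungs at 48 h. The shares of all genes at this unadjusted threshold are not given here. No member was called at 24 h in Tnfr+/+ lungs by limma or the t-test in any of these settings. The late count of 9 was 2 in Tnfr+/+ lungs alone and 7 in Tnfr-/- lungs alone, fits chosen after seeing the data. The shares of all genes in these 2 fits are not given here, so the counts are not read as a genotype difference.

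Between genotypes an unadjusted p under 0.05 gave 1, 4, 6 and 4 members in air and at 24, 48 and 72 h by limma and 1, 2, 5 and 3 by the t-test. It gave 3, 4 and 2 interactions by limma. The adjusted counts were 0, and the limma counts over all genes at the unadjusted threshold are given above. The mean of probe sets gave 1 at 24 h. Over the 4 exposures the count of 1 became 2 with the median filter, array quality weights, the adjusted t-test or the mean of probe sets. Unadjusted it was 8 by limma and 5 by the t-test, where limma put 979 of 11597 genes higher and 1437 lower. With the replicate number as a block the count of members was 0, with the adjusted p of Ddb1 at 0.0579. The block gave 4 and 6 calls in Tnfr-/- lungs at 48 and 72 h and left the other counts as they were. No pairing of mice by number was seen, since 9 of 24 arrays deviated most like the arrays of their own number in other groups, on average. A pairing too weak to show in these values is not excluded.

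With 1 array left out, counts ran from 0 to 1 and 2 to 5 in Tnfr+/+ lungs at 48 and 72 h, from 0 to 1, 2 to 5 and 1 to 5 in Tnfr-/- lungs at 24, 48 and 72 h, and from 6 to 11 late. The late 6 came without Tnfr+/+ air replicate 2 or Tnfr-/- air replicate 3. The Tnfr+/+ 5 came without 72 h replicate 3, the 5 at 48 h in Tnfr-/- lungs without Tnfr+/+ 72 h replicate 1, and the 1 at 72 h without Tnfr-/- 72 h replicate 2 or 3. Without Tnfr-/- air replicate 1 or 72 h replicate 1 that count was 2. Genotype counts ran from 0 to 1 at 24 h (1 without Tnfr+/+ 24 h replicate 3), from 0 to 1 at 72 h (1 without Tnfr+/+ 72 h replicate 3) and from 0 to 2 over the 4 exposures (2 without Tnfr+/+ 24 h replicate 1). Of 793 alternative values of 34 single calls, 652 kept direction and call, 141 lost the call and 0 changed direction. Rad54l, Ung and Mgmt lie near or under the filter value, where array signal over background limits what can be measured.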
